A study of Homo sapiens with 18 samples.

Results

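Panc1 Holoclone and Panc1 Paraclone cells are clonal derivatives of Panc1, an established human cell line from a primary pancreatic ductal adenocarcinoma (PDAC) that serves as a mesenchymal-like model of this cancer. Their comparison rests on 3 Holoclone and 3 Paraclone libraries, 6 of the 18 RNA-seq libraries of the series, and is described here across the 16093 genes tested of 40266 listed. The remaining libraries are of parental Panc1 and of parental, Holoclone and Paraclone cells of the epithelial line Panc89, with 3 libraries each. All cells were untreated. Each Holoclone and Paraclone variant had been grown out from a single cell, so its libraries are passages of 1 clone, and traits of the clone and of the colony type cannot be told apart. Adjusted p-values therefore measure the spread between passages and not between independent clones.

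A holoclone is a compact, smooth-edged colony and a paraclone a loose, irregular one. In cultures of epithelial and carcinoma cells, the first is taken as the colony of cells with high self-renewal, and the second as that of more differentiated cells with little capacity to go on dividing. Pancreatic carcinoma is also known for its dense matrix, for growth factor signalling through the ERBB receptors and for a metabolism with high glucose use. The members of these systems were read as TPM, the number of a gene's transcripts relative to a fixed total, a level corrected for transcript length. A difference is the Holoclone minus the Paraclone mean on the log2(TPM + 1) scale, given with its standard error (SE) from limma-trend, with n = 3 libraries per group. For genes with few transcripts this scale compresses the ratio of the TPM. Library values are in the order of replicates 1, 2 and 3, and a gene was called higher or lower at a Benjamini-Hochberg adjusted p under 0.05 over all genes tested.

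The libraries of a clone resembled each other more than those of the other clone. Pearson correlations across genes were 0.981 to 0.991 within Holoclone cells, 0.976 to 0.991 within Paraclone cells and 0.931 to 0.943 between them. Holoclone libraries held 13370 to 13670 genes at 1 TPM or more, and Paraclone libraries 12930 to 13210. The 100 most abundant genes took 29.4% to 30.3% of all TPM in Holoclone and 31.0% to 36.4% in Paraclone libraries. In Paraclone cells the largest gains in TPM were those of *S100A6*, *FTH1*, *LGALS1* and *TMSB4X*. The median difference of all genes was 0.19 as deposited, against 0.0068 after upper quartile scaling. Of the genes called as deposited, 27.4% of those tested were higher and 9.97% lower in Holoclone cells, so that 73.3% of the calls were higher. After upper quartile scaling, 16.4% of the genes tested were higher and 15.6% lower, 51.3% of the calls, and after median-of-ratios scaling 47.7% of the calls were higher. The call and its direction held in all 3 scalings for 15.1% of the genes tested on the higher side and for 9.96% on the lower side. Genes described below as higher or lower had the same call in all 3 scalings unless stated otherwise. Both rescalings moved the median difference down, so that a lower call could hardly be lost by them. Of the lower calls, 1603 of 1604 held in all scalings, against 2436 of 4402 higher calls. For genes described as lower, a call in all scalings therefore adds little. Counts of list members below are to be read against these shares of all genes tested.

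**Figure D1:**
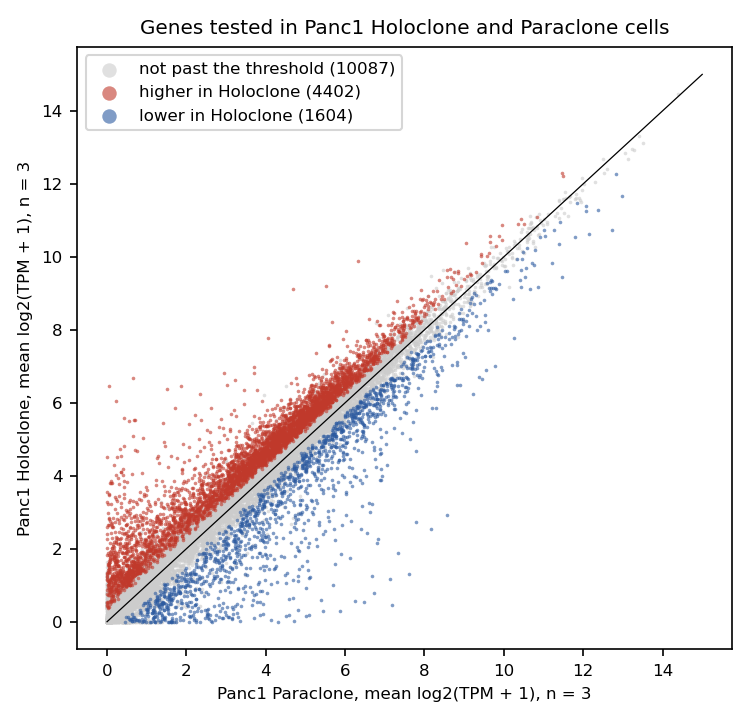
Mean level of each of the 16093 genes tested in Panc1 Paraclone (x axis) and Holoclone cells (y axis), as log2(TPM + 1) over 3 libraries each, with equal levels on the line. The 4402 genes called higher in Holoclone cells lie mostly close to the line, and the 1604 called lower reach farther from it at high levels.

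Among the genes with the largest differences, several that were higher in Paraclone cells were nearly silent in the Holoclone clone. *MMP1*, the interstitial collagenase, was at 0.265, 0.525 and 0.334 TPM in the Holoclone libraries and 204, 155 and 94.3 TPM in the Paraclone libraries, with a difference of −6.72 (SE 0.599, adjusted p = 4.7e-07 in limma-trend). *SRGN*, the proteoglycan serglycin of secretory granules, was at 1.11, 1.78 and 1.65 TPM in the Holoclone libraries and 181, 207 and 198 TPM in the Paraclone libraries. *GJA1*, the gap junction protein connexin 43, was at 0.859, 1.73 and 1.23 TPM in the Holoclone libraries and 139, 123 and 157 TPM in the Paraclone libraries. No Holoclone library of these genes came near a Paraclone library, and their choice required that the libraries not overlap. In bulk RNA, fewer cells with a transcript and less of it per cell cannot be told apart. The same held for *SCUBE3*, *CP*, which encodes the copper-binding ferroxidase ceruloplasmin, *LIPG*, endothelial lipase, *TNFRSF21*, *ADIRF*, *S100A16* and *STC1*, with differences from −5.94 to −4.84. *RAC2*, a GTPase best known from blood cells, was at 0.348, 0.744 and 0.335 TPM in Holoclone and 103, 92.6 and 73.2 TPM in Paraclone cells.

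The genes with the largest differences on the higher side were mixed in function. *IGFBP7*, an IGF-binding protein of the extracellular space, was at 68.6, 127 and 75.2 TPM in the Holoclone libraries and 0.0263, 0.0586 and 0.0363 TPM in the Paraclone libraries, with 6.40 (SE 0.261, adjusted p = 6.44e-11 in limma-trend). *CD24*, a surface glycoprotein often used as a stem cell marker, was at 99.7, 112 and 95.8 TPM in the Holoclone libraries and 0.83, 0.443 and 0.497 TPM in the Paraclone libraries. *AFAP1L2*, an adaptor of Src signalling, and *ABLIM1*, an actin-binding protein, differed by 5.83 (SE 0.176) and 4.86 (SE 0.14). All Holoclone libraries of these genes were above all Paraclone libraries, which their choice required. This was so for 36.6% of the genes tested. *BCAT1*, the cytosolic branched-chain aminotransferase, was at 41.6, 46.1 and 47.1 TPM in Holoclone and 0.487, 0.675 and 0.623 TPM in Paraclone cells. *MACROH2A2*, a histone variant, was at 48.9, 36 and 52.3 TPM in Holoclone and 0.543, 0.53 and 0.813 TPM in Paraclone cells. The developmental transcription factor *PAX2* was at 26.3, 18.8 and 20.7 TPM in Holoclone and 0.00534, 0.00765 and 0 TPM in Paraclone cells. These 3 genes were under 1 TPM in each Paraclone library. *HMX3*, a homeobox factor, was at 26.6, 24.3 and 25.7 TPM in Holoclone and 0.201, 0.297 and 0.277 TPM in Paraclone cells. *CRIP1*, a small zinc-binding LIM protein, was at 604, 541 and 526 TPM in Holoclone and 24, 27.2 and 23.1 TPM in Paraclone cells. The protease gene *TMPRSS2* and the kinesin gene *KIF1A* were also in this group, with 4.40 (SE 0.189) and 4.61 (SE 0.132), as were *STK26*, *ART5*, *NUP210* and *CRACD*.

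**Figure D2:**
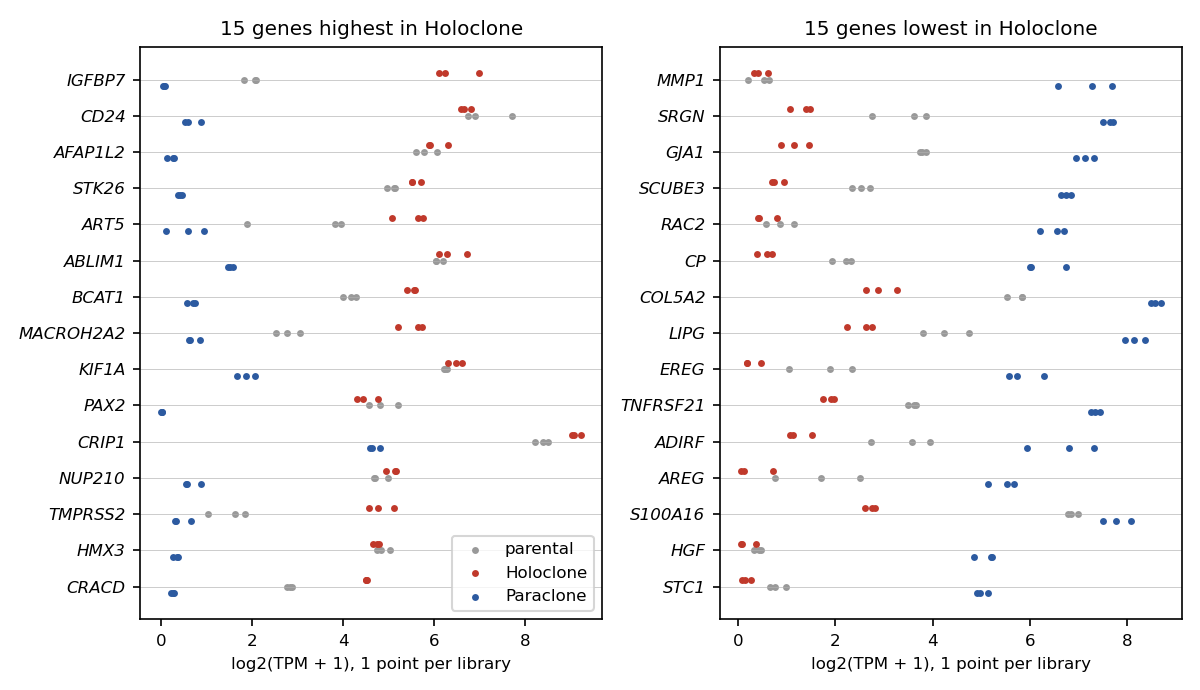
Level of the 15 genes with the highest and the 15 with the lowest Holoclone-against-Paraclone difference, as log2(TPM + 1) with 1 point per library. Parental Panc1 lay between the clones in 12 of the 15 higher and all 15 lower genes.

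Parental Panc1 cells, the uncloned population, lay between the clones for most of these genes. For 12 of the 15 genes with the highest differences the parental mean lay between those of the clones, and for 3 it lay above both. For all 15 lowest it lay between. *SRGN* was at 13.5, 5.73 and 11.2 TPM and *GJA1* at 12.7, 12.3 and 13.6 TPM in parental cells, above Holoclone and far below Paraclone cells. *MMP1* was at 0.561, 0.451 and 0.157 TPM, as low as in the Holoclone libraries. Of all genes called higher, 76.0% had a parental mean between the clones, and 71.4% had one closer to Holoclone than to Paraclone cells. Of all genes called lower, these shares were 73.2% and 64.4%. All these shares are of values as deposited and were not taken after rescaling. The upper quartile of the genes tested was 39.61 to 42.07 TPM in parental and 42.29 to 43.11 TPM in Holoclone libraries. In Paraclone libraries it was 34.62 to 38.55 TPM. Closeness of parental to Holoclone cells cannot be told apart here from this difference between the libraries. Against the clones of the Panc89 line in the same fit, the Holoclone-against-Paraclone difference was unequal between the lines for 35.1% of the genes tested, and for 9 of the 10 genes made up of the 5 highest and the 5 lowest. The exception was *IGFBP7*, with 6.40 in Panc1 and 6.63 in Panc89. The 10 genes were chosen by their Panc1 difference, which is part of this contrast. Their count is therefore not comparable with the share over all genes.

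Genes of the extracellular matrix were mostly lower in Holoclone cells. Of 19 collagen genes tested, 11 were lower and 1 higher in Holoclone cells, with a median difference of −0.57 against 0.19 over all genes. *COL5A2*, a chain of the fibril-regulating collagen V, was at 5.16, 8.57 and 6.32 TPM in the Holoclone libraries and 412, 377 and 358 TPM in the Paraclone libraries, with −5.66 (SE 0.157, adjusted p = 1.48e-12 in limma-trend). *COL4A2*, a chain of the basement membrane collagen IV, was at 0.321, 0.796 and 0.546 TPM in the Holoclone libraries and 23.9, 22.8 and 22 TPM in the Paraclone libraries, and *COL4A1* and *COL4A5* differed by −2.79 and −2.89. The exception was *COL1A1*, the main fibrillar collagen of PDAC stroma, at 7.94, 9.19 and 6.32 TPM in Holoclone and 1.13, 0.923 and 0.969 TPM in Paraclone cells. Its Holoclone libraries were all above its Paraclone libraries, at low levels in both, and its partner chain *COL1A2* was at no more than 0.172 TPM in any library of the clones. Without Holoclone replicate 3, Paraclone replicate 1 or Paraclone replicate 3, 2 collagen genes were higher.

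Of 30 matrix glycoprotein and proteoglycan genes, 15 were lower and 3 higher in Holoclone cells. *LAMA4*, a laminin chain, was at 3.42, 5.7 and 2.66 TPM in Holoclone and 126, 110.0 and 102 TPM in Paraclone cells. *TNC*, the matrix glycoprotein tenascin C, was at 0.106, 0.675 and 0.0439 TPM in Holoclone and 37, 23.4 and 23 TPM in Paraclone cells. *SPARC*, a collagen-binding matricellular protein, was at 2.77, 2.6 and 1.71 TPM in Holoclone and 78.5, 60.02 and 67.2 TPM in Paraclone cells, but at 984, 608 and 1072 TPM in parental cells. Both clones thus lay far below the population they came from. The members that were higher in Holoclone cells were *LTBP2* and *LTBP1*, which bind latent TGF-beta or microfibrils, and the fibulin gene *FBLN1*, at 44.8, 88.3 and 53.1 TPM in Holoclone and 22.2, 29.8 and 31.3 TPM in Paraclone cells.

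Genes that modify, cut and bind the matrix differed mostly in the same direction. Of 16 genes of collagen crosslinking and processing, 9 were lower and 3 higher, with a median difference of −0.73. The lysyl hydroxylases *PLOD1* and *PLOD2* differed by −1.98 (SE 0.257) and −1.69 (SE 0.345), and the lysyl oxidase family member *LOXL2* by −1.47 (SE 0.296). In contrast, *LOX* itself and the collagen chaperone gene *SERPINH1* were higher, by 0.98 (SE 0.262) and 0.72 (SE 0.166). Of 19 genes of metalloproteinases and their inhibitors, 5 were lower and 1 higher, among them *MMP14*, the membrane-bound activator of MMP2, at 33.2, 21.5 and 26.6 TPM in Holoclone and 79.5, 124 and 116 TPM in Paraclone cells. *MMP2* was at 59.3, 50.8 and 42.4 TPM in Holoclone and 111, 109 and 119 TPM in Paraclone cells. *PLAUR*, the urokinase receptor, was at 11.1, 5.93 and 8.42 TPM in Holoclone and 38.8, 33 and 24 TPM in Paraclone cells, and its libraries did not overlap between the clones.

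Of 17 integrin genes, which encode the cell's matrix receptors, 10 were lower and 2 higher in Holoclone cells, with a median difference of −0.70. *ITGA2*, a subunit of a collagen receptor, was at 14.2, 15.7 and 11.4 TPM in Holoclone and 154, 105.7 and 100.0 TPM in Paraclone cells, with −3.02 (SE 0.167, adjusted p = 1.81e-09 in limma-trend). *ITGA5*, of the fibronectin receptor, was at 45, 44.6 and 39.8 TPM in Holoclone and 269, 203 and 165 TPM in Paraclone cells. *ITGB4*, of the laminin receptor in hemidesmosomes, differed by −2.12 (SE 0.313). The 2 higher members were *ITGB5*, of a vitronectin receptor, at 348, 413 and 324 TPM in Holoclone and 176, 169 and 171 TPM in Paraclone cells, and *ITGA7* with 0.96 (SE 0.195).

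Lists of cell-cell junction genes differed from one another in direction. Of 10 desmosome genes tested, 8 were higher and 1 lower in Holoclone cells, 7 of the 8 in all scalings, with a median difference of 1.54. *DSP*, desmoplakin, which ties desmosomes to keratin filaments, was at 15.8, 17 and 16.2 TPM in the Holoclone libraries and 0.338, 0.266 and 0.248 TPM in the Paraclone libraries, with 3.75 (SE 0.133, adjusted p = 1.4e-11 in limma-trend). The desmosomal cadherins *DSG2* and *DSC2* were at 15.3, 21.9 and 15 TPM and 5.72, 6.87 and 6.07 TPM in Holoclone cells, against 0.446, 0.284 and 0.257 TPM and 0.0555, 0.0393 and 0.0318 TPM in Paraclone cells. No library of these genes overlapped between the clones.

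Of 21 tight junction genes, 11 were higher, 9 of them in all scalings, and 1 lower. The summed level of this list was nonetheless 491 to 530.3 TPM in Holoclone and 551 to 614 TPM in Paraclone libraries. *OCLN*, occludin, a membrane protein of the tight junction strand, was at 51.6, 46.5 and 55.6 TPM in Holoclone and 6.52, 9.77 and 7.35 TPM in Paraclone cells. *CLDN3* and the junction plaque gene *CGN* differed by 2.01 (SE 0.272) and 1.60 (SE 0.291). The lower member was *CLDN7*, at 55.2, 64.7 and 47.9 TPM in Holoclone and 116, 171 and 174 TPM in Paraclone cells. *EPCAM*, an epithelial adhesion molecule, was at 29, 27.2 and 31.5 TPM in Holoclone and 1.28, 1.61 and 2.3 TPM in Paraclone cells.

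Cadherins were divided, with 2 of 9 higher and 3 lower, 22.2% and 33.3% against 27.4% and 9.97% of all genes tested. *CDH2*, N-cadherin, was at 11.5, 16.3 and 13.6 TPM in Holoclone and 1.82, 1.09 and 1.25 TPM in Paraclone cells, and *CDH11* differed by 1.94 (SE 0.276). *CDH3*, P-cadherin, was at 0.631, 0.843 and 0.483 TPM in Holoclone and 13.4, 11.2 and 11.5 TPM in Paraclone cells, and *CDH17* differed by −2.62 (SE 0.124). *CDH1*, E-cadherin, was at low levels in both clones, 0.671, 1.49 and 0.808 TPM in Holoclone and 2.1, 2.89 and 3.51 TPM in Paraclone cells, and was lower in Holoclone cells by 0.95 on the log2 scale. Of 9 connexins, 3 were lower, led by *GJA1*, and none was higher, also at an unadjusted p under 0.05.

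Keratins served as the check of the ductal epithelial origin. *KRT8* and *KRT18*, which pair in simple epithelia, were at 638 TPM or more in every library, *KRT8* at 1164, 1786 and 1168 TPM in Holoclone and 1240.1, 644 and 638 TPM in Paraclone cells. Their higher calls were lost after upper quartile scaling, and their libraries overlapped. *KRT19*, a ductal keratin, was at 198, 285 and 183 TPM in Holoclone and 1389, 1194 and 1090.2 TPM in Paraclone cells, with −2.48 (SE 0.286, adjusted p = 7.18e-06 in limma-trend). *KRT7*, another ductal keratin, was at 8.52, 15.4 and 8.78 TPM in Holoclone and 19.6, 14.5 and 10.02 TPM in Paraclone cells and did not pass the threshold, although it was called lower without Holoclone replicate 2. Without Holoclone replicate 2 or Paraclone replicate 2 or 3 the calls of *KRT8* and *KRT18* were lost, and for *KRT18* this also held for Holoclone replicate 3. Keratin genes have close relatives and pseudogenes among which reads can be divided, so these values are uncertain in level.

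Related actin-binding genes differed in opposite directions. Of 16 contractile and actin-binding genes, 6 were higher in Holoclone cells, 37.5% against 27.4% of all genes tested. The lower members were 5, 31.25% against 9.97%. In all scalings 5 were higher, 31.25% against 15.1%. The non-muscle myosin heavy chain *MYH10* was at 13.1, 13.3 and 12 TPM in Holoclone and 0.099, 0.289 and 0.311 TPM in Paraclone cells, while its relative *MYH9* was at 229, 237 and 211 TPM in Holoclone and 442, 408 and 463 TPM in Paraclone cells. Likewise *FLNC*, a filamin mostly of muscle, was at 13.5, 7.65 and 15.8 TPM in Holoclone and 0.43, 0.904 and 1.78 TPM in Paraclone cells. *FLNA*, the common filamin, was at 285, 269 and 303 TPM in Holoclone and 508, 455 and 531 TPM in Paraclone cells. *CALD1*, caldesmon, which restrains myosin on actin, differed by 3.26 (SE 0.217). *ACTA2*, smooth muscle actin, was at 4.62, 3.94 and 3.41 TPM in Holoclone and 10.7, 17.3 and 18.5 TPM in Paraclone cells.

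The 22 targets of YAP and TEAD, transcription regulators that respond to cell tension and contact, had 12 higher members, 9 of them in all scalings, and 3 lower ones. *AMOTL1*, which holds YAP in the cytoplasm, was at 5.14, 6.37 and 5 TPM in Holoclone and 0.068, 0.123 and 0.0604 TPM in Paraclone cells. *ANKRD1* was at 1.37, 7.28 and 2.81 TPM in Holoclone and 0.121, 0.0766 and 0.149 TPM in Paraclone cells, with its Holoclone libraries spread widely but all above the Paraclone libraries. *NT5E*, which encodes the adenosine-producing enzyme CD73, was among the lower members with −0.79 (SE 0.177).

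**Figure D3:**
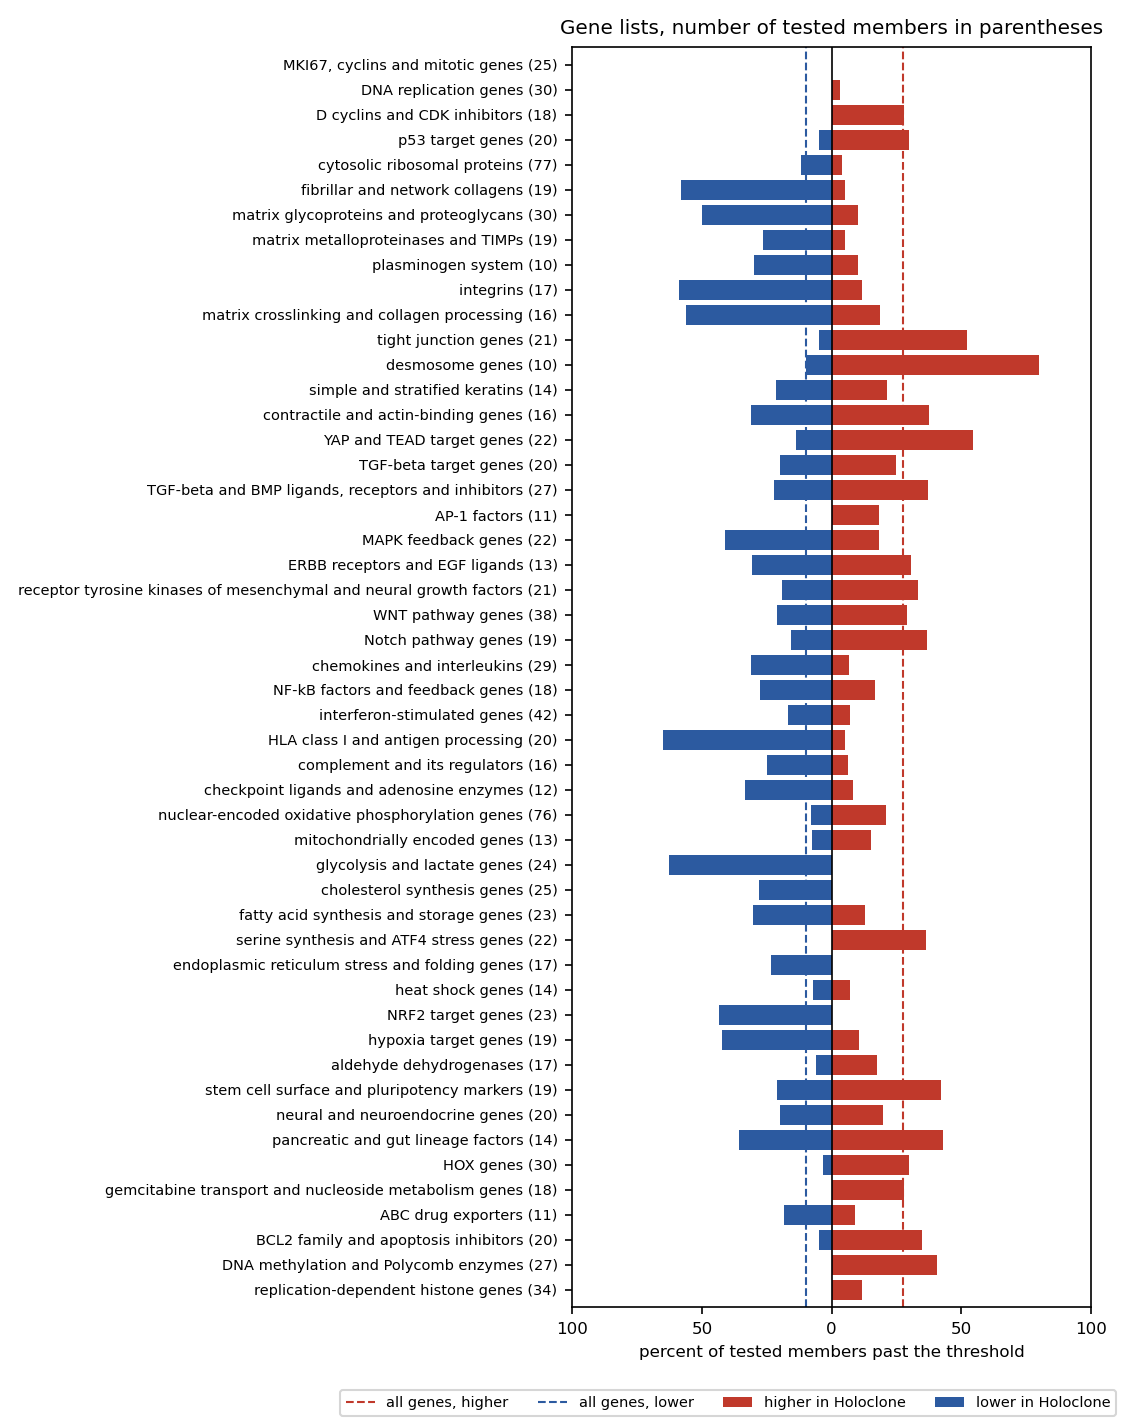
Percent of tested members called higher (red, to the right) and lower (blue, to the left) in Panc1 Holoclone cells, as deposited, per gene list. Dashed lines give the percent over all genes. Lists with few tested members are left out, among them metallothioneins, connexins, cadherins, IGF-binding proteins and the markers of other cells. Lists of matrix, integrin, HLA, glycolysis and NRF2 genes extend to the lower side, and lists of desmosome and tight junction genes to the higher side.

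Of 13 ERBB receptors and EGF ligands tested, 4 were higher and 4 lower in Holoclone cells, each 30.8%. Of all genes tested, 27.4% were higher and 9.97% lower. In all scalings 2 were higher, 15.4% against 15.1%. ERBB receptors are tyrosine kinases that are activated by ligands of the EGF family. *EREG*, epiregulin, was at 0.144, 0.382 and 0.145 TPM in the Holoclone libraries and 77.2, 52.1 and 46.4 TPM in the Paraclone libraries, with −5.58 (SE 0.293, adjusted p = 1.04e-09 in limma-trend). *AREG*, amphiregulin, was at 0.0864, 0.643 and 0.0507 TPM in the Holoclone libraries and 49.9, 45.1 and 34.4 TPM in the Paraclone libraries. *HBEGF*, the heparin-binding member, was at 5.65, 9.17 and 5.62 TPM in the Holoclone libraries and 74.1, 62.3 and 55.3 TPM in the Paraclone libraries. All Paraclone libraries of these ligands were above all Holoclone libraries, which was so for 14.8% of the genes tested. For *EREG* and *AREG* this was required by their choice among the 15 genes with the lowest differences. The feedback inhibitor of these receptors, *ERRFI1*, was at 558, 750.1 and 463 TPM in Holoclone and 1134, 1493 and 1521 TPM in Paraclone cells. The receptors *ERBB2* and *EGFR* were higher in Holoclone cells, *ERBB2* at 42.3, 36.6 and 35.3 TPM in Holoclone and 9.53, 11.1 and 14.8 TPM in Paraclone cells. *EGFR* was at 69.7, 117 and 91.2 TPM in Holoclone and 52.3, 35.6 and 36.7 TPM in Paraclone cells. Of the other members of this list, *ERBB3* and the ligand *NRG1* were called higher as deposited, and these calls did not hold in all scalings, nor without Holoclone replicate 2 or 3 or Paraclone replicate 2 or 3.

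Of 21 further growth factors and receptor tyrosine kinases, 7 were higher, 5 of them in all scalings, and 4 lower, and without Paraclone replicate 2, 4 were higher. *HGF*, the ligand of the receptor MET, was at 0.0456, 0.3 and 0.0557 TPM in the Holoclone libraries and 36.4, 27.7 and 35.9 TPM in the Paraclone libraries. *KITLG*, the ligand of KIT, was at 0.411, 0.411 and 0.261 TPM in Holoclone and 11.1, 8.48 and 8.49 TPM in Paraclone cells. *IGF2*, insulin-like growth factor 2, was at 3.33, 3.84 and 3.34 TPM in Holoclone and 90.2, 109 and 139.9 TPM in Paraclone cells, although this locus overlaps a readthrough gene with *INS*, so its reads can be divided. Its receptor *IGF1R* was higher in Holoclone cells, at 23.7, 20.7 and 21.2 TPM in Holoclone and 9.48, 7.77 and 9.52 TPM in Paraclone cells, as were the receptors *RET* with 2.06 (SE 0.205) and *FGFR2* with 1.35 (SE 0.156).

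The IGF-binding proteins, which hold IGFs in the extracellular fluid, were all detected, and 6 of 7 were called, 3 in each direction. Besides *IGFBP7*, *IGFBP2* was at 11.9, 23.1 and 14.8 TPM in Holoclone and 0.877, 0.902 and 0.759 TPM in Paraclone cells. *IGFBP6* was at 10.5, 9.56 and 9.18 TPM in Holoclone and 4.87, 3.95 and 3.57 TPM in Paraclone cells. In parental cells *IGFBP2* was at 141, 176 and 153 TPM, above both clones. *IGFBP4* was at 23.5, 28 and 20.2 TPM in Holoclone and 184, 109 and 84.1 TPM in Paraclone cells, *IGFBP3* at 5.63, 10.5 and 11.7 TPM in Holoclone and 32.2, 32.7 and 40.6 TPM in Paraclone cells. *IGFBP1* was at 0.021, 0.0715 and 0 TPM in Holoclone and 3.98, 3.88 and 2.97 TPM in Paraclone cells. For these 3 genes all Paraclone libraries were above all Holoclone libraries.

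The feedback genes of MAPK signalling, which lies downstream of such receptors, had 9 lower members of 22 and 4 higher ones, 1 of these in all scalings. *DUSP4*, a nuclear phosphatase of ERK, was at 0.0431, 0.0511 and 0.0378 TPM in Holoclone and 4.73, 4.72 and 5.32 TPM in Paraclone cells. *SPRY2*, an inhibitor of receptor signalling, was at 22.6, 17.4 and 21.6 TPM in Holoclone and 58.5, 52 and 60.4 TPM in Paraclone cells, and *IER3* differed by −1.60 (SE 0.264). *ETV5*, a transcription factor induced by ERK, went the other way with 1.03 (SE 0.166). The number of lower members fell to 5 without Holoclone replicate 3 and also without Paraclone replicate 3.

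Among TGF-beta and BMP ligands, receptors and inhibitors, 10 of 27 genes were higher and 6 lower. The activin chains differed in opposite directions, with *INHBB* at 12.9, 16.2 and 11.4 TPM in Holoclone and 0.452, 0.251 and 0.35 TPM in Paraclone cells. *INHBA* was at 0.453, 1.21 and 0.641 TPM in Holoclone and 13.3, 16.4 and 17 TPM in Paraclone cells. Receptors were also divided. *TGFBR1*, the signalling receptor, was at 14.8, 16.1 and 13.8 TPM in Holoclone and 6.45, 5.6 and 5.79 TPM in Paraclone cells. *TGFBR2*, the ligand-binding one, was at 23.2, 24.1 and 24.2 TPM in Holoclone and 71.7, 53.9 and 59.4 TPM in Paraclone cells. The BMP receptor *BMPR1B* was at 4.29, 4.48 and 4.42 TPM in Holoclone and 0.0436, 0.0706 and 0.0851 TPM in Paraclone cells, and the ligand *BMP7* differed by 1.43 (SE 0.257). The BMP antagonist *NOG* and the activin antagonist *FST* were lower in Holoclone cells, with −1.93 (SE 0.317) and −1.81 (SE 0.348).

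Of 38 WNT pathway genes, 11 were higher, 28.9% against 27.4% of all genes tested, and 8 lower, 21.1% against 9.97%. In all scalings 10 were higher, 26.3% against 15.1%. *FZD6*, a Frizzled receptor of WNT ligands, was at 42.9, 44.3 and 51.2 TPM in Holoclone and 4.98, 6.23 and 7.89 TPM in Paraclone cells. *FZD7*, its relative, was at 11.4, 9.26 and 9.64 TPM in Holoclone and 1.76, 2.28 and 2.49 TPM in Paraclone cells. *ROR2*, another WNT receptor, was at 10.5, 9.15 and 11.3 TPM in Holoclone and 0.0214, 0.038 and 0.0221 TPM in Paraclone cells, and its close relative *ROR1* differed in the opposite direction, at 3.72, 4.13 and 3.28 TPM in Holoclone and 19.1, 12 and 10.7 TPM in Paraclone cells. *NOTUM*, an enzyme that inactivates WNT ligands, was among the higher members with 2.07 (SE 0.287). The lower members included the secreted antagonist *SFRP1*, at 6.23, 6.13 and 5.73 TPM in Holoclone and 38.4, 24.8 and 20.7 TPM in Paraclone cells, the ligand *WNT4* with −1.72 (SE 0.183), and the transcription factor *TCF7* with −2.03 (SE 0.258). Notch ligands differed in opposite directions too, with *JAG2* at 23.8, 15.8 and 15.2 TPM in Holoclone and 6.06, 5.62 and 5.71 TPM in Paraclone cells. *JAG1* was at 14.9, 13.8 and 12.9 TPM in Holoclone and 56.5, 50.6 and 44.4 TPM in Paraclone cells.

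Of 29 chemokine and interleukin genes tested, 9 were lower and 2 higher in Holoclone cells. *CCL2*, a chemokine that attracts monocytes, was at 121, 126 and 109 TPM in the Holoclone libraries and 1106, 642 and 579 TPM in the Paraclone libraries, with −2.64 (SE 0.224, adjusted p = 2.7e-07 in limma-trend). *IL18*, a cytokine of the interleukin 1 family, was at 10.6, 14.8 and 9.09 TPM in Holoclone and 45.5, 56.3 and 58.1 TPM in Paraclone cells. *CXCL1*, a neutrophil chemokine, was at 16.6, 13.3 and 14.1 TPM in Holoclone and 99.8, 48.7 and 48.8 TPM in Paraclone cells. *LIF*, a cytokine of the interleukin 6 family, was at 28.8, 38.5 and 30.6 TPM in Holoclone and 119, 120.2 and 118 TPM in Paraclone cells, and the opposite held for its relative *IL11*, at 10.96, 15.1 and 9.65 TPM in Holoclone and 1.6, 2.2 and 3.51 TPM in Paraclone cells. Parental cells were at 37.6, 19.4 and 30.3 TPM for *CCL2*, below both clones, and at 80.8, 53.7 and 102 TPM for *IL18*.

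Many of these genes are known targets of NF-kB, a transcription factor of inflammation, and 5 genes of the 18 in the list of NF-kB factors and feedback genes were lower. *NFKBIZ*, a nuclear regulator of NF-kB, was at 9.79, 6.74 and 5.88 TPM in Holoclone and 49.9, 46 and 58 TPM in Paraclone cells. *ICAM1*, a leukocyte adhesion molecule, was at 192, 98 and 139 TPM in Holoclone and 438, 444 and 471 TPM in Paraclone cells. The 3 higher members were *NFKB1*, *RELA* and *NFKBIB*, and the call of *NFKB1* held in all scalings while those of *RELA* and *NFKBIB* did not. That of *NFKBIB* was also lost without Holoclone replicate 2 or 3 or Paraclone replicate 2 or 3. The 250 bases before the start of *CXCL1*, of its neighbours *CXCL2* and *CXCL8*, and of *ICAM1* are shown because all carry the letters GGANNTTCC, an NF-kB element. *CXCL2* and *CXCL8* were chosen after their values were seen. The sequences are from RefSeq on GRCh38.p14, in the direction of the gene, with the element in capitals. They span chr4:73869143-73869392 (plus strand), chr4:74099196-74099445 (minus strand), chr4:73740319-73740568 (plus strand) and chr19:10270870-10271119 (plus strand).
CXCL1: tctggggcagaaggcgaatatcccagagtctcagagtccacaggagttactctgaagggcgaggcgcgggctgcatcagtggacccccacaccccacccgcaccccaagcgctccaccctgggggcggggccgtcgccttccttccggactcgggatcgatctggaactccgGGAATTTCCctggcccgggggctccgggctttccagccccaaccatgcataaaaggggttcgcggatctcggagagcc
CXCL2: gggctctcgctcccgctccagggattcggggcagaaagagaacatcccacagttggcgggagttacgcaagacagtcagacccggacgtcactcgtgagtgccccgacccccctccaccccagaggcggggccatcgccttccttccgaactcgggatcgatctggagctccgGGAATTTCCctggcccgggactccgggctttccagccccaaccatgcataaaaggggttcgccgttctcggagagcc
CXCL8: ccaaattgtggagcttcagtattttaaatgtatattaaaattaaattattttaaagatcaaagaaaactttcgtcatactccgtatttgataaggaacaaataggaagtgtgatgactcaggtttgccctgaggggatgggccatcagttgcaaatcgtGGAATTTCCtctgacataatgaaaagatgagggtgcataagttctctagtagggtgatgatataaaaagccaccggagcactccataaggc
ICAM1: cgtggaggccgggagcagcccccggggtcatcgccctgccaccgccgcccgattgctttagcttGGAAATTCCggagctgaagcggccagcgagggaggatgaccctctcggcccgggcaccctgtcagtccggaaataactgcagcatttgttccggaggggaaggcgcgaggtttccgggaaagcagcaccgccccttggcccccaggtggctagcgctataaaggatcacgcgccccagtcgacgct
The letters were searched on both strands, and any start of a gene in that table counted. They were found before 9 of 19 chemokine and interleukin genes with an entry, 47.4%, and before 10 of 16 genes of the NF-kB list, 62.5%, against 5.27% of 11821 genes tested with an entry. As many of these genes are known for the element, the shares describe how the lists were made. Of the 9 chemokine and interleukin genes that hold it, 3 were called lower and none higher, and of the 10 genes of the NF-kB list 3 were lower and 2 higher. Counted by start, the element stood before 3.88% of all starts, 3.88% of those of lower and 4.01% of those of higher genes. *CXCL8* was at 3.85, 4.55 and 3.3 TPM in Holoclone and 23.8, 9.45 and 11.8 TPM in Paraclone cells. *CXCL2* was at 3.68, 2.23 and 3.07 TPM in Holoclone and 16.9, 7.32 and 11.4 TPM in Paraclone cells. The calls of both were lost without Paraclone replicate 1, the library with the highest level of each, and that of *CXCL2* also without Holoclone replicate 2.

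Genes of antigen presentation were mostly lower in Holoclone cells. Of 20 genes of HLA class I and antigen processing, 13 were lower and 1 higher, with a median difference of −0.60. *ERAP2* and *ERAP1*, the peptidases that trim peptides for class I molecules, were at 4.06, 3.7 and 3.81 TPM and 23.1, 20.9 and 22.8 TPM in Holoclone cells, against 40.3, 38.7 and 33.1 TPM and 63.9, 57.2 and 61 TPM in Paraclone cells. *PSMB8*, a subunit of the immunoproteasome, was at 30.9, 27.5 and 28.8 TPM in Holoclone and 67.5, 65 and 59.9 TPM in Paraclone cells. The class I heavy chains *HLA-C* and *HLA-E* differed by −0.93 (SE 0.18) and −0.85 (SE 0.22). Class I genes are near-identical in part, so the division of reads among them is uncertain. The higher member, *HLA-F*, lost its call after upper quartile scaling and without Holoclone replicate 1 or 2 or Paraclone replicate 1 or 2. The summed level of the list was 3692 to 4003 TPM in Holoclone and 5521 to 5990 TPM in Paraclone libraries.

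Interferon-stimulated genes were mixed, with 7 lower of 42, 16.7% against 9.97% of all genes tested, and 3 higher, 7.14% against 27.4%. In all scalings 1 was higher, 2.38% against 15.1%. *IFI44* was at 1.29, 0.829 and 0.363 TPM in Holoclone and 12.9, 14.4 and 13.1 TPM in Paraclone cells. *LGALS3BP*, a secreted galectin ligand, was at 107, 82 and 80.5 TPM in Holoclone and 421, 484 and 525 TPM in Paraclone cells, while the antiviral GTPase *MX2* was at 25.3, 20.0 and 22 TPM in Holoclone and 1.95, 2.07 and 2.23 TPM in Paraclone cells. The number of lower members lay between 3 and 7 when each library was left out. It was 4 without Holoclone replicate 2 or any 1 of the Paraclone replicates, and 3 without Holoclone replicate 3, and the number of higher members fell to 1 without Holoclone replicate 1 or 3 or Paraclone replicate 1 or 2. Of the surface inhibitors of complement, *CD55* was at 14.1, 18 and 12.7 TPM in Holoclone and 105, 130.0 and 129 TPM in Paraclone cells. *CD59* was at 835, 912 and 894 TPM in Holoclone and 1746, 1788 and 1693 TPM in Paraclone cells.

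Genes of glycolysis were mostly lower in Holoclone cells. Of 24 genes of glycolysis and lactate transport tested, 15 were lower, and none was higher, also at an unadjusted p under 0.05 in limma-trend. None was higher after either rescaling, but both moved the median difference down and could hardly have added a higher call. The median difference was −0.74. *ALDOC*, an aldolase, was at 4.51, 6.17 and 3.4 TPM in the Holoclone libraries and 22.2, 51.2 and 75.8 TPM in the Paraclone libraries, with −3.02 (SE 0.352, adjusted p = 7.89e-06 in limma-trend). *SLC2A1*, the glucose transporter GLUT1, was at 31, 40.5 and 24.8 TPM in the Holoclone libraries and 87.3, 79.7 and 84.8 TPM in the Paraclone libraries. *HK2*, a hexokinase of the first step, was at 3.33, 2.69 and 3.38 TPM in Holoclone and 10.3, 10.99 and 12.9 TPM in Paraclone cells. *ALDOA*, the main aldolase, was at 877, 1032 and 838 TPM in Holoclone and 2583, 2283 and 2303 TPM in Paraclone cells. In these 4 genes the clones did not overlap. *LDHA*, which turns pyruvate into lactate, was at 559.5, 796 and 655 TPM in Holoclone and 1939.6, 1241 and 1039 TPM in Paraclone cells. Its call was lost when Holoclone replicate 1 or 3 or Paraclone replicate 1 or 2 was left out. The summed level of the list was 8331 to 9296 TPM in Holoclone, 13260 to 17060 TPM in Paraclone and 11200 to 15890 TPM in parental libraries. Holoclone libraries were below all others, and Paraclone and parental libraries overlapped.

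Hypoxia targets, which include several glycolytic genes, had 8 lower members of 19 and 2 higher ones. *ANGPTL4*, a secreted lipase inhibitor, was at 23.3, 24.2 and 26.9 TPM in Holoclone and 197, 198 and 271 TPM in Paraclone cells. *EGLN3*, an oxygen-sensing hydroxylase, was at 0.0929, 0.12 and 0.0701 TPM in Holoclone and 7.69, 6.12 and 8.03 TPM in Paraclone cells. *NDRG1* was at 5.48, 6.85 and 3.34 TPM in Holoclone and 21.4, 26.8 and 27.3 TPM in Paraclone cells. *ADM*, adrenomedullin, another well-known target, went the other way, at 390.0, 410.4 and 532 TPM in Holoclone and 159, 145 and 168 TPM in Paraclone cells. The 250 bases before *ALDOC* (chr17:28576896-28577145, minus strand), *PGK1* (chrX:78103998-78104247, plus strand) and *ANGPTL4* (chr19:8363905-8364154, plus strand) are shown with the letters ACGTG, the core of the hypoxia response element, in capitals on either strand, again from RefSeq on GRCh38.p14.
ALDOC: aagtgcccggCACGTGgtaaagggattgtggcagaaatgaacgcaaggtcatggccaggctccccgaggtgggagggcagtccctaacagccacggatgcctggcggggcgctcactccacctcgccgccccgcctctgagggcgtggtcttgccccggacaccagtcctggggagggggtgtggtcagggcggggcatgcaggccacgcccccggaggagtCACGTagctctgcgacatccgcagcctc
PGK1: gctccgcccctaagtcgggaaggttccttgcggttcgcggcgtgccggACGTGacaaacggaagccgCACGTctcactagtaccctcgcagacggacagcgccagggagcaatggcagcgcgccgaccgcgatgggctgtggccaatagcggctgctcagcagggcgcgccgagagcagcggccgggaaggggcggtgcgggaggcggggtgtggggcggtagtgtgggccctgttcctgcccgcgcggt
ANGPTL4: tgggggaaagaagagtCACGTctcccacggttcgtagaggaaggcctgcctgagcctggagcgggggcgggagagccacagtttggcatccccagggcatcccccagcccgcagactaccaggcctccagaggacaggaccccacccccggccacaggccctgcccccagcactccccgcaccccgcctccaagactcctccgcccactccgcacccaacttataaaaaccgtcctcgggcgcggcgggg
The core reads CACGT on the other strand, and in *ALDOC* matches of both strands overlap. It was found before 14 of 22 glycolysis genes with an entry, 63.6%, and before 11 of 16 hypoxia targets, 68.8%, against 28.1% of the genes tested with an entry. Of the 14 glycolysis genes that hold it 10 were called lower, as were 14 of the 22 with an entry. Counted by start, the core stood before 21.9% of all starts, 19.8% of those of lower and 23% of those of higher genes. *PGK1*, phosphoglycerate kinase, was at 307, 312 and 285 TPM in Holoclone and 653, 487 and 392.4 TPM in Paraclone cells.

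NRF2 targets, the genes of defence against oxidants, differed in 1 direction. Of 23 tested, 10 were lower and none was higher, also at an unadjusted p under 0.05. *TKT*, an enzyme of the pentose phosphate pathway, was at 233, 243 and 211 TPM in Holoclone and 409.9, 526 and 678 TPM in Paraclone cells. *HMOX1*, heme oxygenase, was at 137, 91.5 and 103 TPM in Holoclone and 213, 347 and 438 TPM in Paraclone cells. *FTH1*, the ferritin heavy chain, was at 4072, 2293 and 3709.9 TPM in Holoclone and 5401, 8606 and 11297 TPM in Paraclone cells, with many processed pseudogenes that can share its reads. In each of these genes all Paraclone libraries were above all Holoclone libraries. Without Paraclone replicate 3, the library with the highest levels of these 3 genes, 6 members were called lower.

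Both lists of lipid genes had more lower than higher members. Of 25 cholesterol synthesis genes, 7 were lower, 12 after upper quartile scaling, and none was higher, against 1 higher and 11 lower at an unadjusted p under 0.05 in limma-trend. The 7 calls fell to 1 without Holoclone replicate 1 or without Paraclone replicate 2 or 3, and to 4 without Holoclone replicate 3, and 1 gene was higher without Holoclone replicate 2 or Paraclone replicate 3. Of 23 genes of fatty acid synthesis and storage, 7 were lower and 3 higher, 2 of the higher ones in all scalings, and the lower calls fell to 4 without Holoclone replicate 1. *PLIN2*, a member of this list that coats lipid droplets, was at 14.8, 10.3 and 14.1 TPM in Holoclone and 98.7, 70.4 and 88.6 TPM in Paraclone cells, and its clones did not overlap.

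Genes of serine synthesis and the ATF4 stress response, which answer to a shortage of amino acids, gave few calls that held. As deposited, 8 of 22 were higher, 36.4% against 27.4% of all genes tested, and none was lower, with 10 and 1 at an unadjusted p under 0.05. After upper quartile scaling, 3 were higher, 13.6% against 16.4%, and 1 lower, and in all scalings 2 were higher, 9.09% against 15.1%. *DDIT3*, a stress-induced transcription factor, was at 172, 233 and 164 TPM in Holoclone and 27.4, 56.8 and 69.2 TPM in Paraclone cells. *NUPR1*, another, was at 273, 333 and 289.8 TPM in Holoclone and 11.2, 78.2 and 133 TPM in Paraclone cells. *PHGDH*, the first enzyme of serine synthesis, was at 382, 348 and 355 TPM in Holoclone and 65.9, 199.5 and 243 TPM in Paraclone cells. For all 3 genes Paraclone replicate 1 was the lowest library. Without it these 3 calls were lost, 3 members were called higher and 1 lower, and without Holoclone replicate 2, 5 were called higher. The calls of *NUPR1* and *PHGDH* were also lost after either rescaling, with adjusted p of 0.0583 and 0.0867 in limma-trend after upper quartile scaling. That of *NUPR1* was lost as well without any 1 of the Holoclone replicates, and that of *PHGDH* without Holoclone replicate 1.

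Of 76 nuclear genes of oxidative phosphorylation, 16 were higher and 6 lower as deposited, but 4 were higher and 19 lower after upper quartile scaling, so no direction held for this list. The higher count also fell to 9 without Holoclone replicate 3, to 10 without Paraclone replicate 2 and to 7 without Paraclone replicate 3. Metallothioneins, small metal-binding proteins, were called in 4 of 6 genes tested, all higher in Holoclone cells. The summed level of the list overlapped between the clones, at 1531 to 1987 TPM in Holoclone and 1522 to 1752 TPM in Paraclone libraries. Parental libraries were above both, at 3219 to 3629 TPM. *MT1E* was at 162, 231 and 185 TPM in Holoclone and 78.4, 74.2 and 77.1 TPM in Paraclone cells, *MT1F* at 6.25, 7.07 and 4.42 TPM in Holoclone and 0.832, 0.974 and 0.575 TPM in Paraclone cells. *MT1A* was at 24.3, 24 and 19.3 TPM in Holoclone and 5.58, 8.77 and 12.6 TPM in Paraclone cells. *MT1M* was at 9.93, 11.9 and 10.9 TPM in Holoclone libraries and listed at 0 in all 3 Paraclone libraries. As these genes are near-identical in part, reads can be divided among them.

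Proliferation genes did not separate the clones. None of the 25 genes in the list of *MKI67*, cyclins and mitotic genes passed the threshold of limma-trend, in either direction, nor did any at an unadjusted p under 0.05. *MKI67*, the gene of the proliferation antigen Ki-67, was at 26.2, 38.5 and 29.99 TPM in the Holoclone libraries and 46.2, 18.8 and 11.3 TPM in the Paraclone libraries, so that Paraclone replicate 1 was the highest and replicate 3 the lowest of all 6 libraries. The summed level of the list was 1420 to 2805 TPM in Holoclone libraries and 3026, 1542 and 806 TPM in Paraclone libraries. The Paraclone libraries alone thus spanned more than the Holoclone libraries, and a difference between the clones in this list was not detectable against that spread. Of 30 DNA replication genes, 1 was called, *GINS3*, 4 were called higher without Paraclone replicate 1, and none without Holoclone replicate 1 or 3 or Paraclone replicate 2 or 3.

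Of the cyclins and inhibitors that control entry into the cell cycle, 5 of 18 were higher, 27.8% against 27.4% of all genes tested. In all scalings 4 were higher, 22.2% against 15.1%. *CDK4*, the kinase partner of the D cyclins, was at 312, 322 and 344 TPM in Holoclone and 241, 177 and 158 TPM in Paraclone cells. *CCND2*, cyclin D2, was at 1.05, 3.1 and 2.46 TPM in Holoclone and 0.0143, 0.0456 and 0.0343 TPM in Paraclone cells. *RBL1*, a relative of the retinoblastoma protein, was at 15.2, 17.1 and 16.6 TPM in Holoclone and 9.23, 3.7 and 2.92 TPM in Paraclone cells. Cytosolic ribosomal protein genes depended on the scaling, with 3 of 77 higher and 9 lower as deposited and 24 lower and none higher after upper quartile scaling. As deposited, leaving out Holoclone replicate 2 gave 8 higher calls and leaving out either other Holoclone replicate gave 1, and the lower calls fell to 5 without Holoclone replicate 2 and to 3 without Paraclone replicate 3.

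Stem cell markers were divided rather than moved together. Of 19 tested, 8 were higher in Holoclone cells and 4 lower. Besides *CD24* and *EPCAM*, the RNA-binding protein gene *MSI1* was at 8.18, 8.09 and 7.46 TPM in the Holoclone libraries and 0.408, 0.175 and 0.265 TPM in the Paraclone libraries. *NES*, nestin, was at 30.5, 21.8 and 31.3 TPM in the Holoclone libraries and 8, 4.17 and 4.04 TPM in the Paraclone libraries, and at 125, 152 and 91.3 TPM in parental cells, above both clones. *CD44*, the hyaluronan receptor used with *CD24* to mark tumour stem cells, went the other way, at 571, 701 and 479 TPM in the Holoclone libraries and 1619.9, 1948 and 2025 TPM in the Paraclone libraries, with −1.68 (SE 0.196, adjusted p = 7.94e-06 in limma-trend). *KLF4*, a pluripotency factor, was at 2.94, 4.54 and 3.29 TPM in Holoclone and 13.2, 14.3 and 16.1 TPM in Paraclone cells. *ABCG2*, the drug exporter of side population cells, was at 1.67, 2.28 and 1.4 TPM in Holoclone and 8.88, 6.41 and 4.7 TPM in Paraclone cells. Each of these 7 genes separated the libraries of the clones completely, which for *CD24* was a condition of its choice.

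Neural genes were divided likewise, with 4 of 20 higher and 4 lower, each 20%, against 27.4% and 9.97% of all genes tested. *MAP2* and *TUBB2B*, proteins of neuronal microtubules, were at 32, 57 and 41.8 TPM and 105, 142 and 129 TPM in Holoclone cells, against 1.12, 1.68 and 2.35 TPM and 8.75, 12.8 and 15.6 TPM in Paraclone cells. The granin *SCG2*, the adhesion molecule *CADM1* and the synaptic vesicle protein *SYT1* were lower in Holoclone cells, with −3.45 (SE 0.255), −3.21 (SE 0.235) and −2.22 (SE 0.312).

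Transcription factors of pancreas and gut differed in both directions. *PDX1*, a factor of pancreatic identity, was at 3.41, 2.88 and 4.3 TPM in Holoclone and 0.443, 0.289 and 0.354 TPM in Paraclone cells. *CDX2*, a factor of intestinal identity, was at 7.66, 3.24 and 5.42 TPM in Holoclone and 0.0599, 0.0927 and 0.0989 TPM in Paraclone cells. *GATA6*, which marks the classical subtype of PDAC, was at 0.0508, 0.187 and 0.201 TPM in Holoclone and 7.52, 6.93 and 6.54 TPM in Paraclone cells. *FOXA1* was at 1.04, 0.886 and 0.85 TPM in Holoclone and 7.31, 5.83 and 8.72 TPM in Paraclone cells. *ONECUT3* was at 2.56, 2.03 and 2.66 TPM in Holoclone and 16.3, 21.1 and 26.7 TPM in Paraclone cells. In all, 6 of 14 were higher and 5 lower, at levels mostly under 10 TPM. Of 30 HOX genes, 9 were higher, 30% against 27.4% of all genes tested, and 1 lower. In all scalings 6 were higher, 20% against 15.1%. *HOXB7* was at 129.9, 123 and 143 TPM in Holoclone and 60.1, 56.3 and 55.5 TPM in Paraclone cells. The lower call was lost without Holoclone replicate 2 or 3 or Paraclone replicate 2 or 3.

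Among 27 genes of DNA methylation and Polycomb enzymes, 11 were higher, 6 of them in all scalings, and none was lower, also at an unadjusted p under 0.05. After upper quartile scaling, 6 were higher and 1 lower. All 3 TET genes, whose enzymes oxidise methylated cytosine, were higher. *TET3* was at 7.95, 6.44 and 8.51 TPM in Holoclone and 2.94, 2.27 and 2.69 TPM in Paraclone cells. *TET1* was at 1.4, 0.925 and 1.44 TPM in Holoclone and 0.107, 0.0889 and 0.0862 TPM in Paraclone cells. The Polycomb genes *BMI1* and *SUZ12* differed by 0.90 (SE 0.179) and 0.89 (SE 0.189). Of 18 genes of gemcitabine transport and nucleoside metabolism, 5 were higher as deposited, 27.8% against 27.4% of all genes tested, and none was lower. In all scalings 2 were higher, 11.1% against 15.1%. Those were *NT5C2* and *DCK*. *NT5C2*, a nucleotidase, was at 226, 263 and 254 TPM in Holoclone and 58.3, 58.6 and 76.5 TPM in Paraclone cells. *DCK*, the kinase that activates gemcitabine, was at 30.5, 36.6 and 35.9 TPM in Holoclone and 21.2, 14.5 and 13.7 TPM in Paraclone cells. The 5 calls fell to 3 without Holoclone replicate 1 and to 2 without Holoclone replicate 3 or Paraclone replicate 2 or 3, and the call of *DCK* was lost without Paraclone replicate 2 or 3.

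Genes of survival and drug response gave few calls that held in all scalings. Of 20 genes of the BCL2 family and apoptosis inhibitors, 7 were higher and 1 lower as deposited, with 1 in each direction in all scalings. The first was *BCL2L11*, the killer protein BIM, with 0.81 (SE 0.187), and the second *BID*, another such protein, with −1.22 (SE 0.149). The 7 calls fell to 4 without any 1 of the Holoclone replicates and to 3 without Paraclone replicate 2 or 3. Of 20 targets of p53, 6 were higher, 30% against 27.4% of all genes tested, and 1 lower. In all scalings 3 were higher, 15% against 15.1%. *TP53I3* was at 37.8, 42.9 and 40.3 TPM in Holoclone and 20.9, 14.7 and 9.59 TPM in Paraclone cells, and the death receptor *FAS* at 3.29, 3.58 and 4.11 TPM in Holoclone and 21.8, 11.5 and 11.4 TPM in Paraclone cells. Aldehyde dehydrogenases, whose activity is used to sort tumour stem cells, had 3 higher members of 17, 17.6% against 27.4% of all genes tested. In all scalings 2 were higher, 11.8% against 15.1%. The 1 lower member, 5.88% against 9.97%, was *ALDH1A3*, at 80.2, 61.2 and 69.3 TPM in Holoclone and 200.3, 150.0 and 126 TPM in Paraclone cells. Without Paraclone replicate 1, 2 were lower.

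Markers of other cells were nearly absent. Of 18 markers of blood and endothelial cells, 15 were under 1 TPM in both clones and 3 of these were listed at 0, and of 12 fibroblast markers 9 were under 1 TPM. The exceptions on the first list included *CD68*, a lysosomal protein of macrophages that many cell lines express, at 69, 52.2 and 59.4 TPM in Holoclone and 151, 129 and 124 TPM in Paraclone cells. On the second they included *THY1*, at 14.6, 12.6 and 9.48 TPM in Holoclone and 9.04, 7.34 and 6 TPM in Paraclone cells, and *COL1A1*, given above, while the defining fibroblast genes *DCN* and *LUM* were at no more than 0.0881 TPM in any library of the clones. The pan-leukocyte marker *PTPRC* and the endothelial marker *PECAM1* reached no more than 0.0443 TPM and 0.0902 TPM. The summed level of the first list was 58.7 to 75.4 TPM in Holoclone and 125 to 153 TPM in Paraclone libraries, nearly all of it *CD68*, and that of the second 16.5 to 23.6 TPM and 7.98 to 10.97 TPM.

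The differences also varied with position in the genome. Of the 16093 genes, 15839 were placed at 1 locus by the GENCODE 44 annotation of GRCh38. By chromosome, the median difference was highest on chromosome 10, at 0.41, where 45.7% of the genes tested were higher in Holoclone cells, and on chromosome 14, at 0.40, with 43.1% higher. It was lowest on chromosome 22, at −0.19, where 29.97% were lower and 4.63% higher, and on chromosome 5, at −0.017, with 19.3% lower. After upper quartile scaling these medians were 0.22, 0.21, −0.39 and −0.21.

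Set against parental cells, the clone with the larger departure differed between these chromosomes. As deposited, the median of Paraclone minus parental was negative on every chromosome except 22. Outside 22 it ran from −0.45 on chromosome 10 to −0.06 on chromosome 18. On chromosome 10 the median of Holoclone minus parental was 0.0090 and that of Paraclone minus parental −0.45. On chromosome 22 they were 0.07 and 0.32, and on chromosome 5 −0.16 and −0.10. On chromosome 14 the Holoclone clone was the one apart, with 0.33 against −0.12. These contrasts share the parental libraries, and they were not rescaled. The upper quartile of the genes tested was 34.62 to 38.55 TPM in Paraclone and 39.61 to 42.07 TPM in parental libraries. The size of each departure is therefore mixed with this difference between the libraries.

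**Figure D4:**
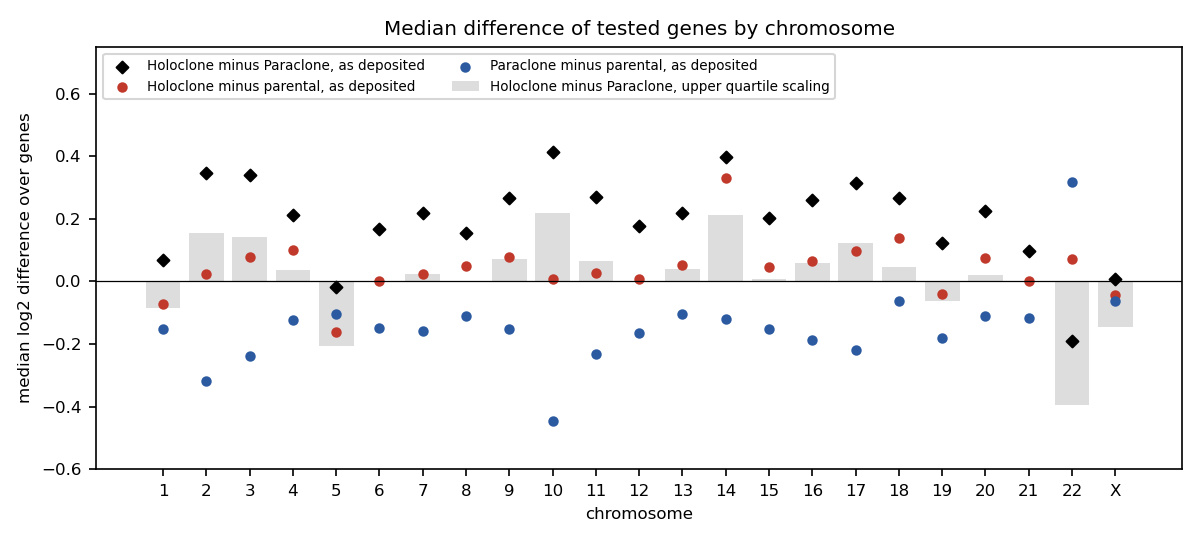
Median log2 difference over the tested genes of each chromosome, for Holoclone minus Paraclone as deposited (black diamonds) and after upper quartile scaling (grey bars). The values of each clone minus parental Panc1 are as deposited only. Chromosome 10 is lowest in Paraclone minus parental, at −0.45, and chromosome 22 highest, at 0.32.

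Within chromosomes, the differences were read over runs of neighbouring genes. Whether such runs exceed those of genes in random order was not tested. Over 15290 windows of 25 consecutive tested genes, the medians from the 1st to the 99th percentile ran from −0.296 to 0.767. The highest window, on chromosome 10 from 110644336 to 118046941, had a median of 1.04, with, as deposited, 20 of 25 genes higher and none lower. Of all genes tested, 27.4% were higher and 9.97% lower. The window was picked for its median, so its counts follow from that choice. It holds *AFAP1L2* and *ABLIM1*, 2 of the genes with the largest differences, and *ATRNL1*, at 8.81, 11.2 and 10.3 TPM in Holoclone and 0.0286, 0.0565 and 0.0416 TPM in Paraclone cells. Against parental cells, as deposited, the median there was −0.75 for Paraclone and 0.14 for Holoclone cells. Other high windows were on chromosome 10 from 90912096 to 94613905, with 1.01, on chromosome 3 from 134065303 to 138953990, with 0.91, and on chromosome 14 from 73567620 to 75012366, with 0.90.

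The lowest window, on chromosome 22 from 35257452 to 37519542, had a median of −1.05, with, as deposited, 20 of 25 genes lower and none higher. This window too was picked for its median, so its counts follow from that choice. It holds *RAC2* as well as *CYTH4*, at 0.313, 0.399 and 0.283 TPM in Holoclone and 9.68, 8.64 and 5.75 TPM in Paraclone cells, and *APOL3*, at 1.94, 1.14 and 1.25 TPM in Holoclone and 8.52, 10.95 and 12.3 TPM in Paraclone cells. Paraclone cells were above parental cells there by a median of 0.67, as deposited. The next lowest outside it were on chromosome 5 from 37288137 to 43313512, with −0.63, and on chromosome 22 from 49900229 to 50562919, also with −0.63. *LIF* lies in a further low window of chromosome 22, and *ERAP2* in one of chromosome 5. No measurement of DNA was used here. A window could also hold single genes that went against it, as on chromosome 10 from 65570338 to 70112282, where the median was 0.93 but *SRGN* and *COL13A1* were among the genes lowest in Holoclone cells. That window also holds *MACROH2A2*, one of the 15 genes with the highest differences. Of those 15, *PAX2* and *HMX3* lie on chromosome 10 too, as do *AFAP1L2* and *ABLIM1*.

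The share of calls also differed with transcript length and level. Among protein-coding genes, ranked by exonic length in 4 bins of near-equal size, the share called higher was 24.1% in the bin of the shortest and 36.7% in that of the longest. After upper quartile scaling it was 12.6% and 23.5%. The share called lower was 11.6% and 10.6% in the same bins as deposited. By mean level over the 9 Panc1 libraries, the shares called higher were 15.3%, 28.5%, 34.6% and 31.0% from the lowest of 4 such bins to the highest. Upper quartile scaling gave 11.8%, 18.8%, 19.2% and 15.8%, and the share called lower was 8.25% in the lowest bin and 23.4% in the highest. Of 1358 long non-coding RNA genes tested, 21.9% were higher and 5.60% lower as deposited.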

How the data were processed

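Poly(A) RNA of 18 libraries, 3 passages of each of 6 cell variants, was sequenced by the authors with a stranded kit and paired ends. The deposited values are log2(TPM + 1) per gene symbol. The authors made them with kallisto 0.46.1 on Ensembl GRCh38 release 106 and with tximport as scaled TPM. The file gives no counts, so the depth of the libraries is unknown, no interval or detection limit could be given, and the number of reads behind a low value is not known.

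Genes at 1 TPM or more in at least 3 of the 18 libraries were fitted with limma 3.58.1 in R 4.3.3 (lmFit and eBayes with trend, called limma-trend here), with 1 mean for each of the 6 groups, so that all groups share the spread. P-values were adjusted by the Benjamini-Hochberg method over the 16093 genes, at a threshold of 0.05. The fit was tested on simulated data. The data.table package 1.17.8 was used for reading, and Python 3.11.15 with pandas 2.3.3, numpy 2.4.6 and matplotlib 3.10.9 was used for sequences and figures. Same-numbered replicates of the 2 clones did not deviate together (correlations of −0.268, −0.0453 and −0.00525), so no block was used.

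Named genes were drawn by rule from the 15 highest and 15 lowest called differences with non-overlapping libraries and from the gene lists. In lists with at most 6 calls, any called member could be named. In longer lists, the 4 highest and 4 lowest called members could be named. Genes that define a list could be named as well. *COL4A1*, *CXCL2*, *CXCL8*, *HLA-C*, *HLA-E*, *LDHA*, *SUZ12*, *S100A6*, *LGALS1* and *TMSB4X* fall outside this rule and were chosen after their values were seen. Many called members of the lists, also some that the rule covers, are counted but not reported by name here. The members, gene lists, motifs and tests were chosen with earlier results of these data known. Motifs were searched in the 250 bases before RefSeq gene starts, which had an entry for 11821 of the genes tested. Alternatives were 2 rescalings, another pseudocount, no filter, fewer libraries in the fit, a replicate block, a fold threshold and leaving out each library.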

Additional observations from a re-analysis of the deposited data

Results flagged for a closer look

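The Holoclone-against-Paraclone difference was set against the same difference in the Panc89 line by a contrast of both differences in limma-trend, which called 5655 genes, 35.1% of those tested. The 5 genes with the highest and the 5 with the lowest difference in Panc1 were chosen by a value that is part of this contrast. Passing it was thus largely fixed by that choice. Of these genes, 9 passed this test, and each is given as the Panc1 minus the Panc89 difference on the log2(TPM + 1) scale. On the higher side they were *CD24* with 5.06, *AFAP1L2* with 6.87, *STK26* with 5.10 and *ART5* with 4.96. On the lower side they were *MMP1* with −6.30, *SRGN* with −6.42, *GJA1* with −6.93, *SCUBE3* with −5.97 and *RAC2* with −5.17. Within Panc89 the differences of these genes were 0.97, −1.04, 0.07, −0.02, −0.42, 0.12, 0.97, 0.03 and −0.77 in the same order. *IGFBP7* did not pass the test, with 6.40 in Panc1 and 6.63 in Panc89, a difference of −0.23 (SE 0.37, adjusted p = 0.679 in limma-trend). Each line supplied 1 clone of each kind, so the line and the clone cannot be told apart.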

How the results depend on the processing

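Of 203 named genes, 175 kept their direction and their side of the threshold in every alternative, and none reversed. The other 28 lost or gained a call in at least 1 alternative. After upper quartile scaling, 2642 genes were higher, 2512 lower and the median of all genes was 0.0068; after median-of-ratios scaling these were 2438, 2670 and 0. The median was 0.24 with a pseudocount of 0.1 and 0.012 with no filter on low values. With an added limit of 1 on the absolute log2 difference, 1860 genes were called, 1146 higher and 714 lower. Leaving out each library gave 4763 to 5808 calls, 3454 to 4231 higher and 1305 to 1577 lower, with medians of 0.17 to 0.21. The replicate numbers do not pair the samples by the labels, and with them as a block among the 6 libraries 3738 genes were called, 2610 of them higher; in the fit of all libraries, chosen after seeing the data, 5738 were called. The cause of these shifts was not tested. Without counts, the precision of low values cannot be given, and 3 passages of 1 clone do not stand for other clones.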
